A study of Homo sapiens with 6 samples.

Results

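The cytosolic ribosomal protein (RP) genes were examined in HCT116 cells, a human colorectal carcinoma line, that had lost CAD and had been irradiated. Members were the genes of the count table whose symbols begin with RPL or RPS followed by a number, with or without a final A or X, together with RPLP0, RPLP1, RPLP2 and RPSA. This rule gave 77 of the 20020 genes, 46 of the large subunit and 31 of the small subunit. Symbols ending in L, such as RPS27L, and ribosomal proteins with other names were outside it. RNA-seq compared CAD-KO+IR cells with sgVec+IR cells, with 3 libraries in each group. CAD-KO+IR cells were HCT116 cells with CAD, caspase-activated DNase, knocked out, and sgVec+IR cells were HCT116 cells carrying the control vector. The study made such knockouts with the lentiCRISPRv2 plasmid and kept them as stable lines. Both groups had received ionizing radiation (IR), 8 Gy given 24 h before by the study's description, and libraries from cells without IR were not analysed here. The sample titles give neither guide nor line, and the study ties its enrichment results on the knockout cells to 1 knockout line. The guide, the line and the loss of CAD therefore cannot be told apart. No source says that the 3 libraries of a group came from separate cultures, so the p-values measure only the spread between these libraries.

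Ribosomal proteins wrap and shape the ribosomal RNA of the large and small subunits, and each ribosome takes up nearly all of them in equal number. Their mRNAs are among the most abundant of a growing cell. Most begin with a 5′ terminal oligopyrimidine (TOP) motif, a C at the first base followed by a run of C and T, through which the kinase mTOR and the RNA-binding protein LARP1 adjust their translation. Because this control acts on translation, the amount of RP mRNA and the amount of RP protein made from it can change separately. When ribosome assembly fails, free RPL5 and RPL11 can bind MDM2 and relieve p53 from degradation, and HCT116 cells carry functional p53. RNA-seq of whole cells reads the mRNA only.

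Of 3 promoter motifs searched, the TOP motif was found in the most members. Promoter sequences from RefSeq on GRCh38.p14, of 250 bases before and 50 bases from the annotated start, were matched for 62 of the 77 members. A C at an annotated start followed by at least 4 C or T was present in 46 of these 62 members (74.2%), against 6.33% of the genes of the count table and 5.14% of all genes in that promoter set. The letters CCGGAAG on either strand, the core bound by ETS factors, were present in 22 members (35.5%) against 16.7% of the genes of the count table. TATAAA within the 50 bases before the start was present in 2 members (3.23%) against 4.53%. The windows below run from 40 bases before the start to 15 bases from it, with the TOP run in capitals. They show the 3 genes of the P stalk, the pair of members whose CAD-KO+IR libraries were all above the sgVec+IR libraries (RPL14 and RPS25), members that differed once 2 libraries were left out (RPL3, RPL13A, RPS3A and RPL26), and RPL17, the member with the lowest level.
RPLP0, chr12:120201097-120201151, minus strand: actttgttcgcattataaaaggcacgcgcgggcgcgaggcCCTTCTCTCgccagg
RPLP1, chr15:69452778-69452832, plus strand: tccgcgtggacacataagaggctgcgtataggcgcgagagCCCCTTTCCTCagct
RPLP2, chr11:809927-809981, plus strand: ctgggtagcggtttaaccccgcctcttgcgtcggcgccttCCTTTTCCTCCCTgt
RPL14, chr3:40457299-40457353, plus strand: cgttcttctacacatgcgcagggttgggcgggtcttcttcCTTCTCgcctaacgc
RPS25, chr11:119018329-119018383, minus strand: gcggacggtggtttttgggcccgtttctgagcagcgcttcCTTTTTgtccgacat
RPL3, chr22:39319609-39319663, minus strand: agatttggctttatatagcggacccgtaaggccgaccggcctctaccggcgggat
RPL13A, chr19:49487568-49487622, plus strand: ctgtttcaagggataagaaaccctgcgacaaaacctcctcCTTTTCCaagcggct
RPS3A, chr4:151099588-151099642, plus strand: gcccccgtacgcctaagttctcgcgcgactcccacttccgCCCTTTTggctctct
RPL26, chr17:8383179-8383233, minus strand: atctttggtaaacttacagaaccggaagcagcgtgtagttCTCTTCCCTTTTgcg
RPL17, chr18:49492451-49492505, minus strand: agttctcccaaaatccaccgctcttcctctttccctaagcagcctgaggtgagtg

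The RPL3 and RPL17 windows had no TOP run at the annotated start. Both hold runs of C and T elsewhere in the window, so a start annotated at another base there could change the call. RPLP0 had the TATAAA letters in this window, and RPLP1 and RPLP2 did not.

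The 6 libraries held 14032994 to 19574144 counts. DFFB, the gene of CAD, had 185 to 217 counts in CAD-KO+IR and 297 to 357 in sgVec+IR, lower in every knockout library. Of the epithelial markers, EPCAM, KRT8, KRT18, KRT19, CDH1, CLDN3 and CLDN4 had 103 counts or more in every library and CDH17 had 0 to 15 counts, while PTPRC, CD3E, PECAM1, COL1A2 and ALB of other cell types had at most 11, VWF 13 to 73 and COL1A1 155 to 715. A pair of libraries, CAD-KO+IR replicate 2 and sgVec+IR replicate 3, stood apart from the other 4. In sgVec+IR replicate 3, 7561 genes had no count, against 4577 to 5232 in each of the other libraries, and limma gave these 2 libraries quality weights of 0.154 and 0.0404 against 1.79 to 6.75. Results are therefore given with all 6 libraries and with these 2 left out (the 4 libraries). The 4 libraries are 2 against 2, and the 2 left out were picked from these same data for standing apart. Leaving them out narrows the spread, so p-values from the 4 libraries are likely too small.

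RP genes took from 4.66% to 5.22% of the counts of a library. Their share of all counts was 5.15%, 4.67% and 4.88% in CAD-KO+IR and 5.12%, 5.22% and 4.66% in sgVec+IR, with 95% Wilson intervals no wider than 0.0115 percentage points to either side, which cover counting error only. The lowest share of each group belonged to 1 of the 2 outlying libraries, and the groups overlapped. The mean difference was −0.106 percentage points (two-sided exact permutation test, p = 0.8, 0.9 after Benjamini-Hochberg adjustment over 6 library measures), and with 3 libraries against 3 this test cannot go below 0.1. The log2 ratio of large subunit to small subunit counts was 0.709, 0.773 and 0.718 in CAD-KO+IR and 0.738, 0.744 and 0.612 in sgVec+IR, a mean difference of 0.036 (exact permutation p = 0.6, adjusted 0.9). Without sgVec+IR replicate 3 the ratio differed by −0.0075, so its sign rested on that library.

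Levels differed far more between members than between groups. In CPM (counts scaled to 1e+06 per library) per kilobase of mRNA, averaged over the 6 libraries, the median member had 727 and 53 of the 77 members lay within 2-fold of it. RPLP0 (2222), RPS2 (2121), RPLP1 (1897), RPSA (1616) and RPL8 (1572) had the highest levels per kilobase. The first and the third of these encode proteins of the P stalk, RPS2 and RPSA encode small subunit proteins near the mRNA channel and its exit, and RPL8 encodes a protein close to the peptidyl transferase centre. Per kilobase, RPS2 ran from 979 to 2676 and RPL8 from 556 to 2019.9 over the libraries, both spanning the whole range of RPSA (1487 to 1727), so the places of RPS2 and RPL8 relative to RPSA were not fixed across libraries.

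**Figure D1:**
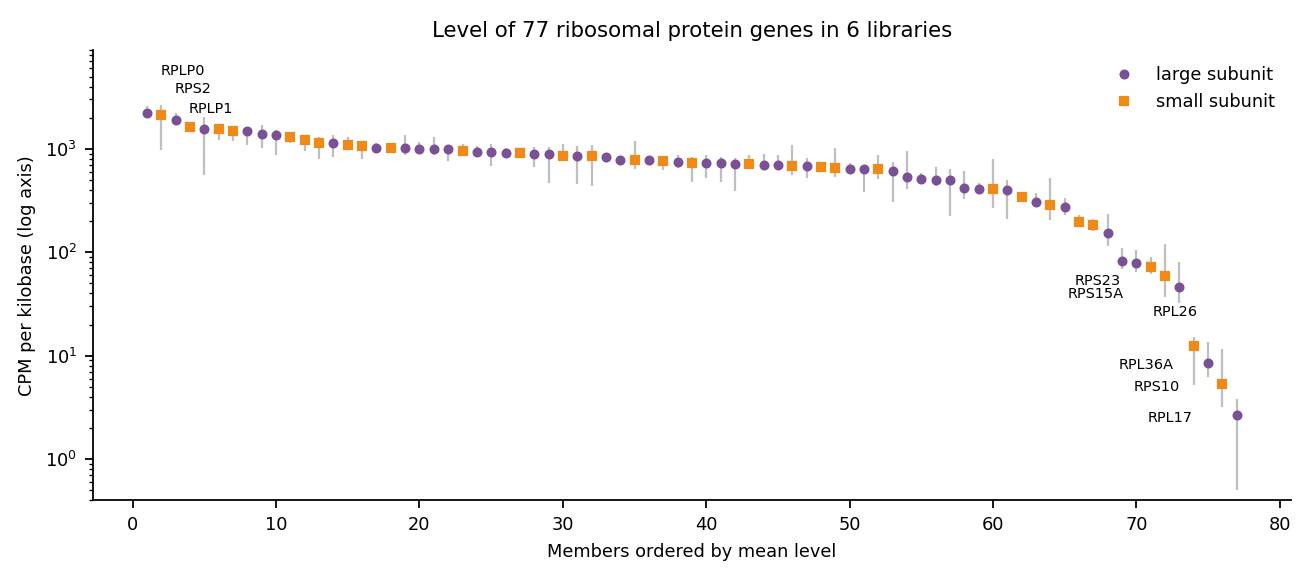
Each point is the mean level of 1 of the 77 RP genes over 6 libraries, in CPM per kilobase on a log axis, ordered from highest to lowest, and the grey line spans the lowest and highest library. Most members lie close to the median of 727, and a tail of 7 members falls from 72.3 (RPS23) to 2.65 (RPL17); the line of RPL17 is cut at 0.5 because 1 library had no count.

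A tail of 7 members had levels under 10% of that median. Among them, RPL17 had 2.65 CPM per kilobase, RPS10 5.35, RPL36A 8.57, RPL26 45.9, RPS15A 58.7 and RPS23 72.3, and the highest member stood 838-fold above the lowest. Whether the low levels came from the way reads were assigned to these genes was not tested. In the GENCODE release 29 annotation, 64.9% of the exon bases of RPL17, 71.1% of RPS10 and 26.6% of RPL36A lie inside exons of another gene. Each of these 3 has an annotated read-through gene that joins it to its neighbour (RPL17-C18orf32, RPS10-NUDT3 and RPL36A-HNRNPH2), and all 3 read-through genes had 0 counts in all 6 libraries. Across the 77 members the level per kilobase and the overlapped percentage had a Spearman correlation of −0.55, and the level and the number of pseudogenes named after the member −0.19, as descriptions of genes in 1 set of libraries. RPL10 had 61.3% of its exon bases overlapped and 411 CPM per kilobase, while RPS15A and RPS23 of the tail had 5.01% and 9.56% overlapped. The counting rule for reads that match several genes is not given in the sources used here, so the levels of these members, and of members with many pseudogenes, are uncertain.

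No RP gene met the rule for a differentially expressed gene (DEG), a change of 1.5-fold or more with an adjusted p under 0.05 in edgeR's quasi-likelihood test. Among all 12925 genes tested, 0.00774% were upregulated DEGs and 0.0232% downregulated DEGs, so few calls were made anywhere in this fit. For CAD-KO against sgVec cells after IR, the study reported far more DEGs, with DESeq2 at these thresholds. The source of this difference was not tested. DFFB, the targeted gene, was not a DEG either, at −1.02 on the log2 scale (SE 0.19, edgeR adjusted p = 0.55). The lack of a call among the members therefore does not show that they were unchanged. All 77 members passed the filter on low counts, and 0 had an unadjusted p under 0.05, and DESeq2 called 0 members after adjustment. Of the members, 33 were higher and 44 lower in CAD-KO+IR, and their log2 fold changes had a median of −0.03 against −0.01 over all genes tested. The values ran from −0.39 (RPS10) to 0.73 (RPL17), and 68 of 77 were between −0.3 and 0.3. The median standard error (SE) was 0.17 for members and 0.29 for all genes, so shifts of this size were within the error of a single member.

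The P stalk genes were the members whose CAD-KO+IR libraries all lay below the sgVec+IR libraries. RPLP0 is the base of this stalk, and RPLP1 and RPLP2 bind it in pairs and recruit elongation factors to the ribosome. RPLP0 had 2368, 2351 and 2233 CPM in CAD-KO+IR and 2447, 2493 and 2848 in sgVec+IR. RPLP1 had 846, 755 and 751 CPM against 850.3, 882 and 981. RPLP2 had 486, 374 and 447 CPM against 499, 493 and 580.4. Each was lower in 3 of 3 CAD-KO+IR libraries, but the gap between the closest libraries of the groups was small, and sgVec+IR replicate 3 was the highest library for all 3 genes. The log2 fold changes were −0.16 (SE 0.11), −0.21 (SE 0.13) and −0.27 (SE 0.15), and the adjusted p in edgeR's quasi-likelihood test was 0.9999 for each. In the 4 libraries they were −0.10, −0.11 and −0.08, with adjusted p of 0.148, 0.141 and 0.313 in edgeR's quasi-likelihood test. With sample weights in limma, RPLP0 (−0.13, adjusted p = 0.0324) and RPLP1 (−0.17, adjusted p = 0.0322) passed an adjusted p under 0.05, both below the 1.5-fold threshold. RPLP2 (−0.13, limma adjusted p = 0.0795) did not. At any fold, 6 of the 77 members were lower in that fit, against 11.8% of all genes tested. RPLP2 changed sign to 0.05 when a GC correction was added to the 4 libraries. The 3 genes were the 3 members without overlap in that direction, 3 of 77 against 5.01% of all genes tested, a share no higher than the background.

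In the other direction RPL14 and RPS25 were the members without overlap, 2 of 77 against 5.23% of all genes. RPL14, a protein on the outside of the large subunit, had 704, 791 and 689.7 CPM in CAD-KO+IR and 666, 658 and 476 in sgVec+IR, a log2 fold change of 0.28 (SE 0.17). Its distance between the groups came mainly from sgVec+IR replicate 3, and the value was 0.08 in the 4 libraries. RPS25, a protein of the small subunit head that some viral internal ribosome entry sites need, had 310.0, 319 and 287 CPM against 262, 286 and 258, a log2 fold change of 0.18 (SE 0.13). The lowest CAD-KO+IR library and the highest sgVec+IR library of RPS25 were almost equal. Its value in the 4 libraries was 0.13 (edgeR adjusted p = 0.131), and 0.14 with a GC correction (edgeR adjusted p = 0.037).

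None of the 4 members that bind MDM2 when ribosome assembly is disturbed passed the test with all 6 libraries. RPL5 had 914, 1011 and 912 CPM in CAD-KO+IR and 928, 886 and 1092 in sgVec+IR, a log2 fold change of −0.04 (SE 0.13). RPL11, its partner in the 5S RNA particle, had 612, 604 and 588 CPM against 604, 615 and 333. Apart from sgVec+IR replicate 3, all its libraries lay between 588 and 615 CPM, and the log2 fold change of 0.22 (SE 0.24) became −0.02 in the 4 libraries. RPL23 had 551, 696 and 552 CPM against 541, 553 and 836, with both outlying libraries at the top, a log2 fold change of −0.10 (SE 0.21). RPL26, which also binds the p53 mRNA, was counted far lower, with 28.1, 33.4 and 26.0 CPM against 22.1, 21.8 and 54.2, and its log2 fold change of −0.16 (SE 0.38) became 0.31 in the 4 libraries (edgeR adjusted p = 0.0498).

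Several members varied little between libraries, while others named here, such as RPL22 and RPS27A, did not. RPL10A, a large subunit protein near the exit site for transfer RNA, had 589.6, 598 and 585 CPM in CAD-KO+IR and 593, 596 and 590.2 in sgVec+IR, a standard deviation of 0.775% of its mean over the 6 libraries. RPS12 (627 to 665 CPM) and RPL29 (522 to 586 CPM) also had a standard deviation under 5% of the mean. RPSA, the laminin receptor homologue of the small subunit, had 1796, 1638 and 1716 CPM against 1793, 1832 and 1902. RPS4X, an X-linked member, had 1008, 1007 and 989 CPM against 973, 986 and 1130.0. RPS6, the substrate of the S6 kinases below mTOR, had 1012, 1247 and 1025 CPM against 1024, 1045 and 1024, and the one high value was CAD-KO+IR replicate 2. RPS19, the gene most often mutated in Diamond-Blackfan anaemia, had 838, 678 and 753 CPM against 800.4, 819 and 781. RPL22 had 103, 131 and 114 CPM against 99.4, 101 and 157, and RPL10 had 695, 777 and 663 against 666, 697 and 812. In both, the 2 outlying libraries were the highest of their groups. RPS27A, which encodes ubiquitin fused to a small subunit protein, had 528, 619 and 519 CPM against 474, 482 and 900.5, with the same 2 libraries at the top.

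Most of the largest log2 fold changes in either direction came with large SEs and followed sgVec+IR replicate 3. RPL17 had 46, 38 and 49 counts in CAD-KO+IR and 34, 32 and 0 in sgVec+IR, where 0 counts allow up to 0.212 CPM, and its value was 0.73 (SE 0.69). RPL41, the shortest ribosomal protein, had 327, 371 and 304 CPM against 313, 299 and 129.7, a value of 0.43 (SE 0.32) that was 0.05 in the 4 libraries. RPL12, RPL27A and RPL28 likewise had 493, 318 and 312 CPM in sgVec+IR replicate 3 and 571 to 855 in every other library. RPL36A and RPS24 were instead highest in CAD-KO+IR replicate 2, with 9.38 and 685 CPM against 4.34 to 6.28 and 472 to 504 elsewhere. On the other side, RPS3A had 277, 408 and 251 CPM against 236, 232 and 692, a value of −0.31 (SE 0.46). RPS15A had 49.8, 61.3 and 45.5 CPM against 37.4, 42.6 and 123, a value of −0.37 (SE 0.46), and RPS10 had 3.09, 2.74 and 3.02 CPM against 2.08, 2.33 and 7.41, a value of −0.39 (SE 0.53). In the 4 libraries RPS3A, RPS15A and RPS10 changed sign, to 0.18, 0.26 and 0.48. RPL34, RPS29 and RPS21 did the same, from −0.30, −0.29 and −0.26 to 0.14, 0.14 and 0.07. RPL30 had 81.0, 58.4 and 57.0 CPM against 64.3, 75.3 and 116. Its value of −0.38 (SE 0.27) was −0.006 in the 4 libraries. RPS23 had a value of −0.19 (SE 0.18) with all 6 libraries and −0.07 in the 4 libraries. Neither RPL30 nor RPS23 changed sign in any alternative.

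In the 2 outlying libraries the members moved with their GC content. Exon GC content ran from 42.6% to 62.4% over the members, with a median of 50.3%, close to that of all genes tested. Across the 77 members, the log2 CPM of CAD-KO+IR replicate 2 relative to the mean of the 4 libraries had a Pearson correlation of −0.78 with GC content, and that of sgVec+IR replicate 3 −0.41, or −0.59 over the 76 members without RPL17. Over all genes with a GC value the correlations were −0.79 and −0.60, so RP genes followed the same trend as the rest. As medians, the 25 members of lowest GC content (42.6% to 47.5%) were higher in both libraries, at 0.31 and 0.36 on the log2 scale. The 25 of highest GC content (52.7% to 62.4%) were lower, at −0.25 and −0.59. Single members went the other way, such as RPL17 of the low GC members in both libraries. Among the high GC members, RPLP2 did so in sgVec+IR replicate 3 (0.27). The standard deviation over members was 0.35 in CAD-KO+IR replicate 2 and 0.88 in sgVec+IR replicate 3, against 0.07 to 0.11 in the other 4 libraries. The smaller deviations of those 4, each against the mean of the rest of the 4, also went with GC content. Their correlations over members were −0.19 and −0.51 in CAD-KO+IR replicates 1 and 3. In sgVec+IR replicates 1 and 2 they were 0.44 and 0.42, of opposite sign. Of the 77 members, sgVec+IR replicate 3 was the highest or the lowest library for 62, and no other library was so for more than 26. RPL8 (GC 62.4%) had 1093 and 550.4 CPM in the 2 outlying libraries against 1812 to 1999.7 in the other 4, and RPS2 (GC 60.4%) had 1351 and 935 against 2295 to 2555. The cause of these GC trends was not tested.

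Leaving out the 2 outlying libraries made 440 DEGs among 13059 genes (3.37%), and none was a member. The largest log2 fold change of a member in either direction was 0.48, 73 of 77 were between −0.3 and 0.3, and the median was −0.004. At an adjusted p under 0.05 with no fold threshold, 3 members were higher and 3 lower in CAD-KO+IR, against 7.99% and 8.25% of all genes. RPL3, which lines the peptidyl transferase centre, had 1998 and 1886 CPM in the CAD-KO+IR libraries and 2223 and 2323 in the sgVec+IR libraries, a log2 fold change of −0.22 (SE 0.05, edgeR adjusted p = 0.00055). RPL13A, a protein also known to act outside the ribosome in interferon-treated cells, had 1376 and 1285 CPM against 1518 and 1546, a value of −0.20 (SE 0.05, edgeR adjusted p = 0.0027). With all 6 libraries the values of RPL3 and RPL13A were only −0.12 (SE 0.21) and −0.09 (SE 0.21). In the left-out sgVec+IR replicate 3 they had 1399 and 942 CPM, below every CAD-KO+IR library. The 3 that rose were RPS3A (0.18, edgeR adjusted p = 0.0302), RPS15A (0.26, edgeR adjusted p = 0.0406) and RPL26 (0.31, edgeR adjusted p = 0.0498). All 6 changes were below the 1.5-fold threshold.

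GC content moved with these small differences too. In the 4 libraries the members' log2 fold changes had a Pearson correlation of −0.47 with GC content, and those of all genes −0.29. RPL3 and RPL13A, which fell, have 54.9% and 54.1% GC, and RPS3A, RPS15A and RPL26, which rose, have 43.8%, 48.4% and 44.8%. With a GC correction in the 4 libraries the correlation was 0.03, and 6 members were higher and 2 lower at an adjusted p under 0.05, against 8.18% and 7.47% of all genes. RPL3 (−0.17, edgeR adjusted p = 0.00084) and RPL13A (−0.15, edgeR adjusted p = 0.0029) stayed lower and RPS15A (0.24, edgeR adjusted p = 0.0365) stayed higher. RPS3A (0.11) and RPL26 (0.25) no longer passed. With limma sample weights in place of leaving libraries out, 5.15% of all genes were DEGs and 0 members were.

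Members with and without a TOP run had similar medians. The 46 with a run had a median log2 fold change of −0.03 and the 16 without one −0.02, and in the 4 libraries 0.005 and −0.01. Their median levels were 707 and 751 CPM per kilobase.

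Ribosomal proteins outside the symbol rule gave a like picture. FAU had a log2 fold change of −0.12 and RACK1, a scaffold protein on the small subunit, 0.18, and neither passed the test. Of 8 paralogs of members, 5 were tested with all 6 libraries, and RPL10L and RPL39L had 0 counts in every library. RPL22L1, the paralog of RPL22, had 162, 219 and 173 CPM against 205, 192 and 475, with a log2 fold change of −0.65 (SE 0.37), and in the 4 libraries −0.24 (edgeR adjusted p = 0.0040). RPL7L1 was 0.22 higher in the 4 libraries (edgeR adjusted p = 0.0043) and 0.10 higher in all 6.

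Most genes that build ribosomes had values on the higher side, and the difference between them and the RP genes was not tested. Of 39 ribosome assembly factors, 33 were higher in CAD-KO+IR with all 6 libraries, their median was 0.16 on the log2 scale, and 0 were DEGs, while 6214 of the 12925 genes tested were higher. The groups did not overlap for 6 of the 39, NOP56, NCL, UTP4, NOLC1, DKC1 and NOP16, all higher, against 5.23% of all genes in that direction. NOP56, a core protein of the box C/D particles that methylate ribosomal RNA, had 333, 366 and 343 CPM against 283, 284 and 259, a value of 0.34 (SE 0.13). NCL, which encodes the nucleolar protein nucleolin, had 1704, 1847 and 1705 CPM against 1613, 1487 and 1192, a value of 0.29 (SE 0.14). Both had an adjusted p of 0.9999 in edgeR's quasi-likelihood test with all 6 libraries. In the 4 libraries 35 of 39 were higher with a median of 0.13, and 9 passed an adjusted p under 0.05 at any fold, all higher, against 7.99% of all genes. Among these were NOP56 at 0.26 (edgeR adjusted p = 0.00067) and LTV1, a factor of late small subunit assembly, at 0.50 (edgeR adjusted p = 0.00069), which was 0.07 with all 6 libraries. Leaving out 1 library at a time left 26 to 35 of the 39 higher.

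RNA polymerase I genes, which transcribe the ribosomal RNA, had a median of 0.08 over 14 genes with 0 DEGs. In the 4 libraries POLR1F (0.40), TAF1D (0.35) and POLR1G (0.51) were higher and TAF1C (−0.21) was lower at an adjusted p under 0.05 in edgeR, 3 and 1 of 14 against 7.99% and 8.25% of all genes. With all 6 libraries these values were −0.03, 0.14, 0.20 and −0.10. With a GC correction in the 4 libraries TAF1C no longer passed (−0.08, edgeR adjusted p = 0.426), while POLR1F, TAF1D and POLR1G still did. UBTF (0.18, edgeR adjusted p = 0.0138) and POLR1A (0.13, edgeR adjusted p = 0.0393) passed as well, both higher, against 8.18% of all genes. Translation factors and other genes with TOP mRNAs had a median of 0.04 over 14 tested, and 0.0003 in the 4 libraries. Of these 14, only EEF1D (0.39) and TPT1 (0.18) passed an adjusted p under 0.05 in edgeR in the 4 libraries. Both were higher, against 7.99% of all genes, and with all 6 libraries their values were 0.39 and 0.05. Among 13 genes that regulate RP mRNAs, the median was 0.06 with 0 DEGs. MTOR had 208, 205 and 206 CPM against 224, 212 and 126, and LARP1 had 341, 299 and 351 against 314, 322 and 202. For both, sgVec+IR replicate 3 was the lowest library. The 76 mitochondrial RP genes tested, which encode the ribosome of a different compartment, had a median of 0.007, with 40 higher and 36 lower, and took 0.427% of counts in CAD-KO+IR and 0.428% in sgVec+IR.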

How the data were processed

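Reads were trimmed by the authors in fastp and counted in featureCounts, and the gene counts were used as deposited. The aligner, annotation and strand setting are not given in the sources used here. The submitters' processing notes name mm10, a mouse build, although the gene identifiers are human. The sample labels give the molecule as genomic DNA, but their protocol describes RNA libraries, and the libraries were treated as RNA. The filterByExpr function, at a minimum count of 10 and a minimum total of 15, kept 12925 of 20020 genes. TMM scaling and edgeR's quasi-likelihood test (edgeR 4.0.16, R 4.3.3, legacy set to FALSE) compared CAD-KO+IR with sgVec+IR, and p-values were adjusted by Benjamini-Hochberg over all genes tested. CPM use TMM-adjusted library sizes. Alternatives used DESeq2 1.42.0, limma 3.58.1, other scalings and filters, a replicate block and libraries left out, and a GC correction (lowess span 0.3), which was chosen after seeing the data. Scripts were tested on simulated data. Exact permutation tests used scipy 1.17.1.

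GC content, mRNA lengths and overlaps came from GENCODE release 29 on GRCh38, where 19823 identifiers matched once versions were ignored, and promoters from RefSeq on GRCh38.p14. A member with several annotated starts counted as holding a motif if any start did. The members and gene lists were chosen with earlier results of these data known. Some genes that the rule or the lists cover are not reported here. Apart from genes not reported, the text names DFFB and the 10 members with the largest log2 fold change in each direction. It also names the 5 with the highest level, the P stalk and the members that bind MDM2. RPS6, RPSA, RPS27A, RPS4X, RPL22, RPL10, RPS19 and RPL41 are named too. RPS25, RPL3, RPL13A, RPL10A, RPS12, RPL29 and the genes of the other lists were named after their values were seen.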

Additional observations from a re-analysis of the deposited data

How the results depend on the processing

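No alternative called an RP gene a DEG. The replicate block gave 0 DEGs and a median of −0.011, but the replicate numbers did not pair the libraries, with correlations of 0.468, −0.545 and −0.379 between same-numbered libraries, and CAD-KO+IR replicate 2 correlated best with sgVec+IR replicate 3 (0.552). The members' median log2 fold change of −0.026 ran from −0.028 to 0.033 when 1 library was left out, and was 0.020 with a GC correction in the 4 libraries. The RP share difference ran from −0.276 to 0.00816 percentage points with 1 library left out. The subunit ratio difference ran from −0.00749 to 0.0586, and was −0.027 in the 4 libraries. Of 700 values over 35 members and 20 alternatives, 82 changed sign, and 11 members kept theirs throughout. In the 4 libraries the values that changed sign were RPL11 −0.018, RPL28 −0.018, RPL27A −0.0039, RPS10 0.48, RPS15A 0.26, RPS3A 0.18, RPL34 0.14, RPS29 0.14, RPS21 0.072, RPS2 −0.075, RPL8 −0.021, RPL5 0.014, RPL23 0.017, RPL26 0.31, RPS6 −0.017, RPS27A 0.13, RPS4X 0.033, RPL22 0.12, RPL10 0.00102. With a GC correction in the 4 libraries they were RPL11 −0.0396, RPS10 0.52, RPS15A 0.24, RPS3A 0.11, RPL34 0.079, RPS29 0.11, RPLP2 0.0504, RPS21 0.093, RPL26 0.25, RPS6 −0.071, RPS27A 0.091, RPS4X 0.0055, RPL22 0.057, RPL10 0.036, RPS19 0.071. With sample weights they were RPL11 −0.034, RPL28 −0.064, RPL27A −0.029, RPS10 0.45, RPS15A 0.22, RPS3A 0.13, RPL34 0.11, RPS29 0.086, RPS21 0.0058, RPS2 −0.12, RPL8 −0.071, RPL5 0.0083, RPL23 0.016, RPL26 0.26, RPS6 −0.011, RPS27A 0.12, RPS4X 0.019, RPL22 0.16. With 1 library left out the ranges were RPL11 −0.018 to 0.37, RPL28 −0.065 to 0.40, RPL27A −0.055 to 0.37, RPL12 −0.0027 to 0.34, RPS10 −0.71 to 0.42, RPS15A −0.66 to 0.39, RPS3A −0.56 to 0.42, RPL34 −0.51 to 0.23, RPS29 −0.52 to 0.29, RPS21 −0.43 to 0.11, RPS2 −0.31 to 0.26, RPL8 −0.25 to 0.41, RPL5 −0.088 to 0.061, RPL23 −0.22 to 0.13, RPL26 −0.38 to 0.41, RPS6 −0.017 to 0.16, RPS27A −0.31 to 0.22, RPS4X −0.076 to 0.033, RPL22 −0.15 to 0.22, RPL10 −0.095 to 0.065, RPL3 −0.32 to 0.015, RPL13A −0.28 to 0.038. The cause of these sign changes was not tested. With a median SE of 0.17 over the members, log2 shifts of that size could not be told from 0 in a single gene, and the low counts of RPL17, RPS10 and RPL36A limit what can be said of them.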
